A study of Mus musculus with 6 samples.

Results

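This account is about 39 genes of fatty acid oxidation and ketogenesis in mouse liver, followed in animals fed chow with polypropylene microplastic (PP-MP) and in animals fed normal chow. The genes are enzymes of mitochondrial and peroxisomal oxidation, acyl-CoA thioesterases, ketone body enzymes and a few regulators. They were chosen by name, with earlier results of these data known. All 39 are rows of a table of 56674 rows of raw read counts, and all 39 had enough counts to be tested among 18284 genes. The PP-MP group holds 3 liver libraries from male C57BL/6 mice at 71 weeks on PP-MP chow, called PP-MP 1, 2 and 3. The control group holds 3 liver libraries from male C57BL/6 mice of the same age on normal chow, called control 1, 2 and 3. No genetic change is named for either group. No source used here states the dose, the particle size or the length of feeding. A protocol field names PS-MP for all 6 samples, so the groups follow the titles and the treatment field. The labels do not say that the samples of a group come from separate animals, so each p-value weighs a difference only against sample-to-sample spread, which may be technical.

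In hepatocytes, long-chain fatty acids are activated to acyl-CoA, handed to carnitine to cross into mitochondria, and shortened there by repeated rounds of dehydrogenation, hydration, dehydrogenation and thiolysis. Peroxisomes shorten very long chains and pass the products on, thioesterases release free fatty acids from acyl-CoA, and in fasting the liver turns the resulting acetyl-CoA into ketone bodies for other organs. Many of these genes are targets of PPAR-alpha (Ppara), a nuclear receptor activated by fatty acids.

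The level of each gene is given as CPM, its count relative to the library's total after scaling by TMM factors, and each fold change is the log2 ratio of PP-MP over control from edgeR's quasi-likelihood fit of all genes. A number in brackets after a gene, where nothing else is said, is that log2 fold change. Total counts ran between 81073738 and 100252360 in the PP-MP libraries and between 68357478 and 112566641 in the control libraries. A pair of libraries stood apart. PP-MP 1 had 22148 summed CPM of 7 acute phase genes (Saa1, Saa2, Lcn2, Orm2, Hp, Fgb and Apcs), against 5850 and 4968 in PP-MP 2 and 3 and 4967 to 6096 in the control libraries. All 7 were at their highest in PP-MP 1, as were the 5 tested neutrophil markers of 7 (summed CPM 23.9 in PP-MP 1, 5.15 and 3.10 in PP-MP 2 and 3, and 1.31 to 1.86 in the control libraries) and all 7 Kupffer cell markers (389 in PP-MP 1, 242 and 114 in PP-MP 2 and 3, and 95.8 to 130 in the control libraries). The neutrophil markers Ly6g and Mmp8 were too low to test. Control 2 stood apart by ribosomal RNA: the gene Rn18s-rs5 took 11.2% of its counts, against 0.655% to 0.750% in the PP-MP libraries and 2.92% and 1.15% in control 1 and 3. The 7 hepatocyte markers, albumin among them, were abundant in every library, with 63364, 64039 and 74068 summed CPM in PP-MP 1, 2 and 3 and 67504, 56139 and 63745 in control 1, 2 and 3.

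None of the 39 genes differed between the diets by edgeR at an adjusted p of 0.05, where 0.0109% of all genes tested were called. The lowest adjusted p among the 39 was 0.343 by edgeR, 0.216 by DESeq2 and 0.299 by limma-voom, and those other tools also called none of them, against 4.26% and 0.00547% of all genes tested. At an unadjusted edgeR p under 0.05 there was 1 of 39, Hsdl2, which was lower in PP-MP. That is 2.56%, against 13.9% of all genes tested (8.05% higher and 5.81% lower). The same gene was the only 1 of 39 whose 3 PP-MP libraries lay outside the range of the 3 control libraries, where the share of all genes tested was 22% (12.2% higher and 9.79% lower). The fitted log2 fold change was below 0 for 31 of 39 genes (79.5%, against 47.4% of all genes tested), with a median of −0.18 over the 39 and 0.03 over all genes tested, and ran between −0.96 for Acaa1b and 0.48 for Crat. The 95% interval lay within 2-fold in either direction for 22 of 39 genes (56.4%, against 46.3% of all genes tested), and its median half-width was 0.66 on the log2 scale for the 39 and 0.73 for all genes tested.

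The sign of that median rested on PP-MP 1. Without PP-MP 1 the median log2 fold change of the 39 was 0.10, 26 genes were fitted higher and 13 lower, and the interval lay within 2-fold for 31 of 39. It also depended on scaling: when libraries were scaled by their totals alone it was 0.05 and the median of all genes tested was 0.26, so the median of the 39 was below that of all genes in both scalings.

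**Figure D1:**
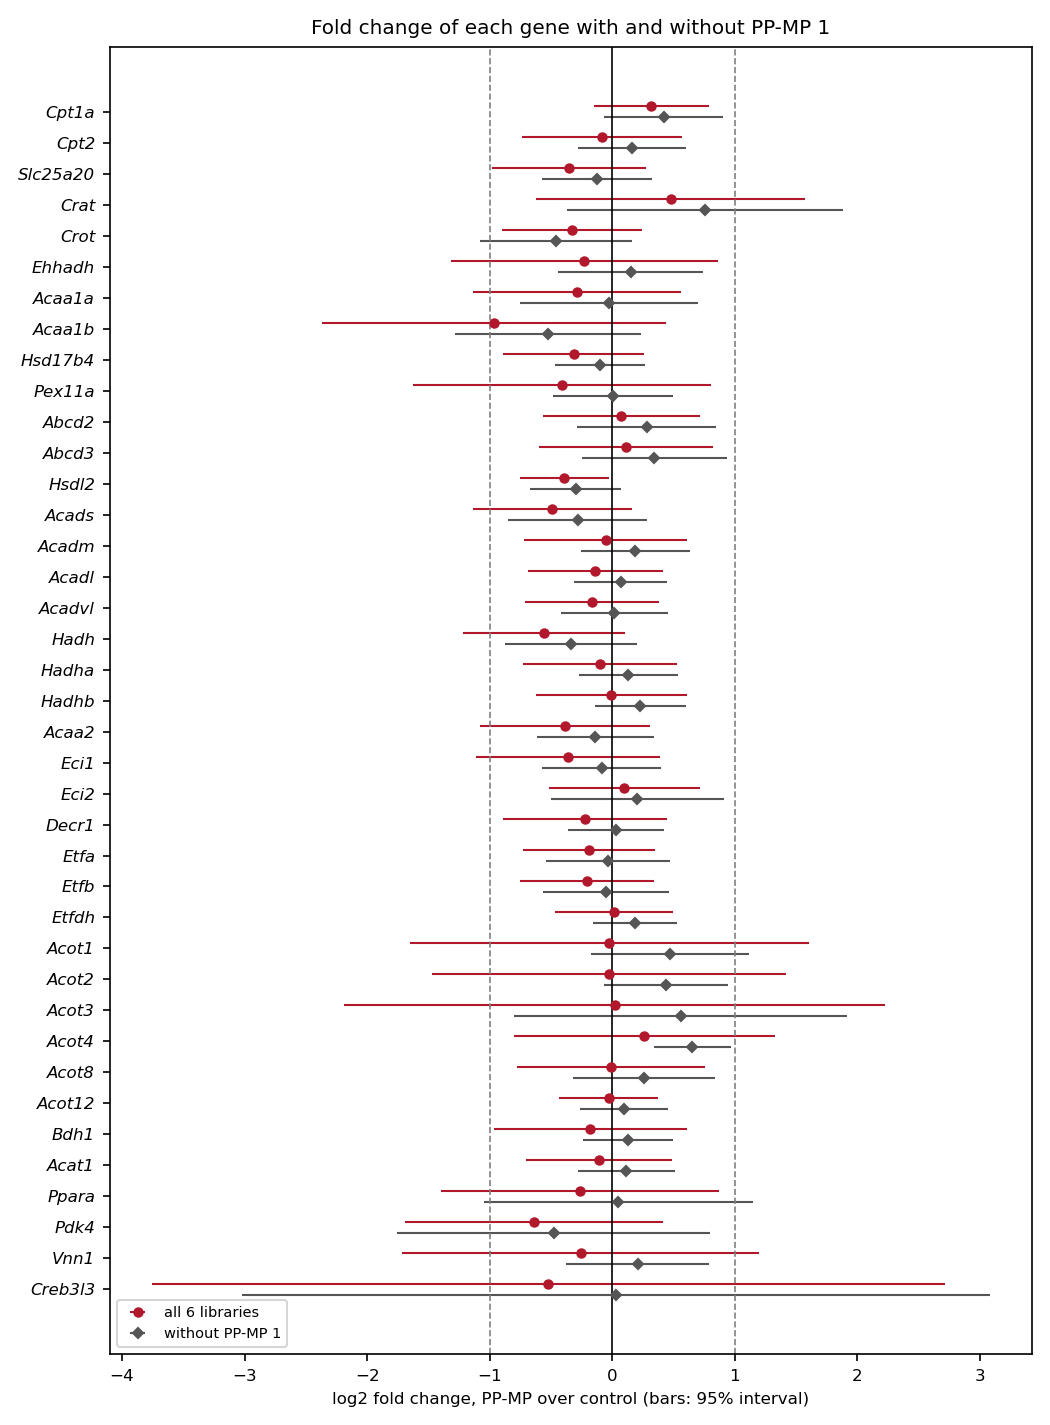
Fitted log2 fold change of each of the 39 genes, PP-MP over control, on the horizontal axis, with bars for the 95% interval, from all 6 libraries (red) and without PP-MP 1 (grey). Dashed lines mark 2-fold, and every grey point except that of Crot lies to the right of its red partner.

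Most of the 39 genes were lowest in the same library. PP-MP 1 held the lowest of the 6 values for 34 of 39 genes (87.2%), where 22.9% of all genes tested were lowest in PP-MP 1. PP-MP 2 and 3 were lowest for 0 of the 39 (10.2% and 12% of all genes tested), control 1 for 1 (21.1%), control 2 for 2 (13.9%) and control 3 for 2 (18.7%). The summed level of the 39 was 6558, 12666 and 13087 CPM in PP-MP 1, 2 and 3 (10771 ± 3654, SD, n = 3), against 14292, 11123 and 14645 CPM in control 1, 2 and 3 (13353 ± 1939, SD, n = 3). PP-MP 2 and 3 therefore lay inside the range of the control libraries, and PP-MP 1 lay below it. In these bulk samples, fewer cells of a type and less RNA per cell cannot be told apart. The sum of the 7 hepatocyte markers in PP-MP 1 was inside the range of the control libraries, but this rested on Apoa1, which was at its highest there (9670 CPM, against 1165 to 3693 CPM in the control libraries). Without Apoa1, a choice made after seeing the data, the sum was 53694, 60480 and 66612 CPM in PP-MP 1, 2 and 3. It was 66339, 54947 and 60052 CPM in control 1, 2 and 3, so PP-MP 1 was lowest, close to control 2. Alb alone gave 47022 CPM of that sum in PP-MP 1. Of the 7 markers, 3 (Alb, Ttr and Asgr1) were lowest in PP-MP 1. The markers did not move together. Cps1 was at its highest in PP-MP 1 (2543 CPM, against 1749 to 1971 CPM in the control libraries). Tat was above every control library there (846 CPM, against 401 to 605 CPM), and Hnf4a lay inside the control range. The acute phase, neutrophil and Kupffer cell genes were at their highest in PP-MP 1. The part of these marker lists in the result was not tested.

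PP-MP 1 was below every control library for the same 34 genes (29.8% of all genes tested), PP-MP 2 for 2 (23.8%) and PP-MP 3 for 3 (24%). Above every control library, PP-MP 1 had 0 of the 39 (32.9% of all genes tested), PP-MP 2 had 11 (27.8%) and PP-MP 3 had 15 (27.5%). When libraries were scaled by their totals alone, PP-MP 1 was below every control library for 31 (15.2% of all genes tested), and PP-MP 1, 2 and 3 were above every control library for 1 (49.2%), 24 (52.8%) and 21 (41.2%). PP-MP 2 and PP-MP 3 were both above every control library for 5 genes, Cpt1a, Hadhb, Etfdh, Acot2 and Acot4, and both below for 1, Hsdl2. The share of all genes tested beyond the controls in both libraries was not counted, so neither count can be called particular to the 39.

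**Figure D2:**
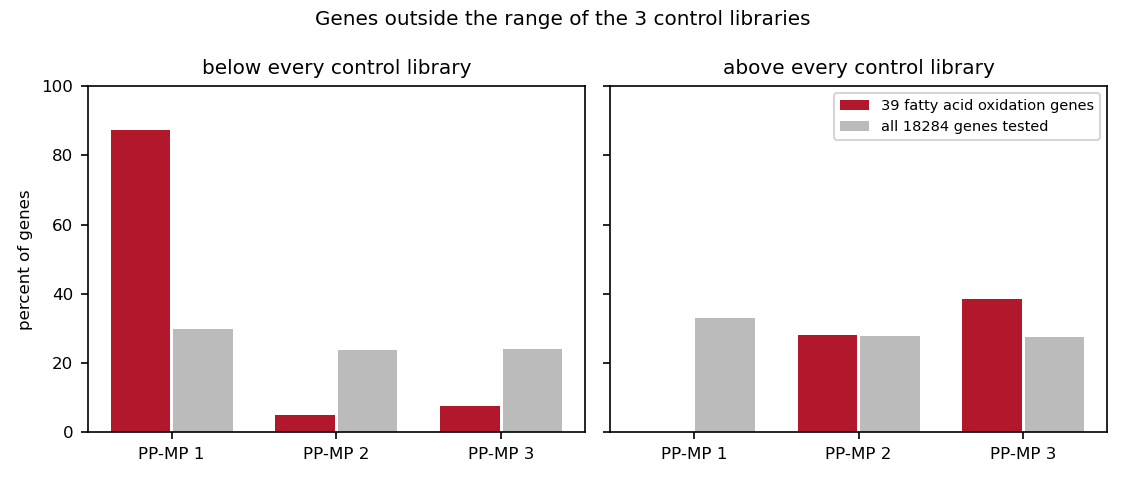
Percent of the 39 genes (red) and of all 18284 genes tested (grey) that lay below every control library (left) or above every control library (right), for PP-MP 1, 2 and 3. PP-MP 1 was below every control library for 87.2% of the 39 and above for none, while PP-MP 2 and 3 were below for few.

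**Figure D3:**
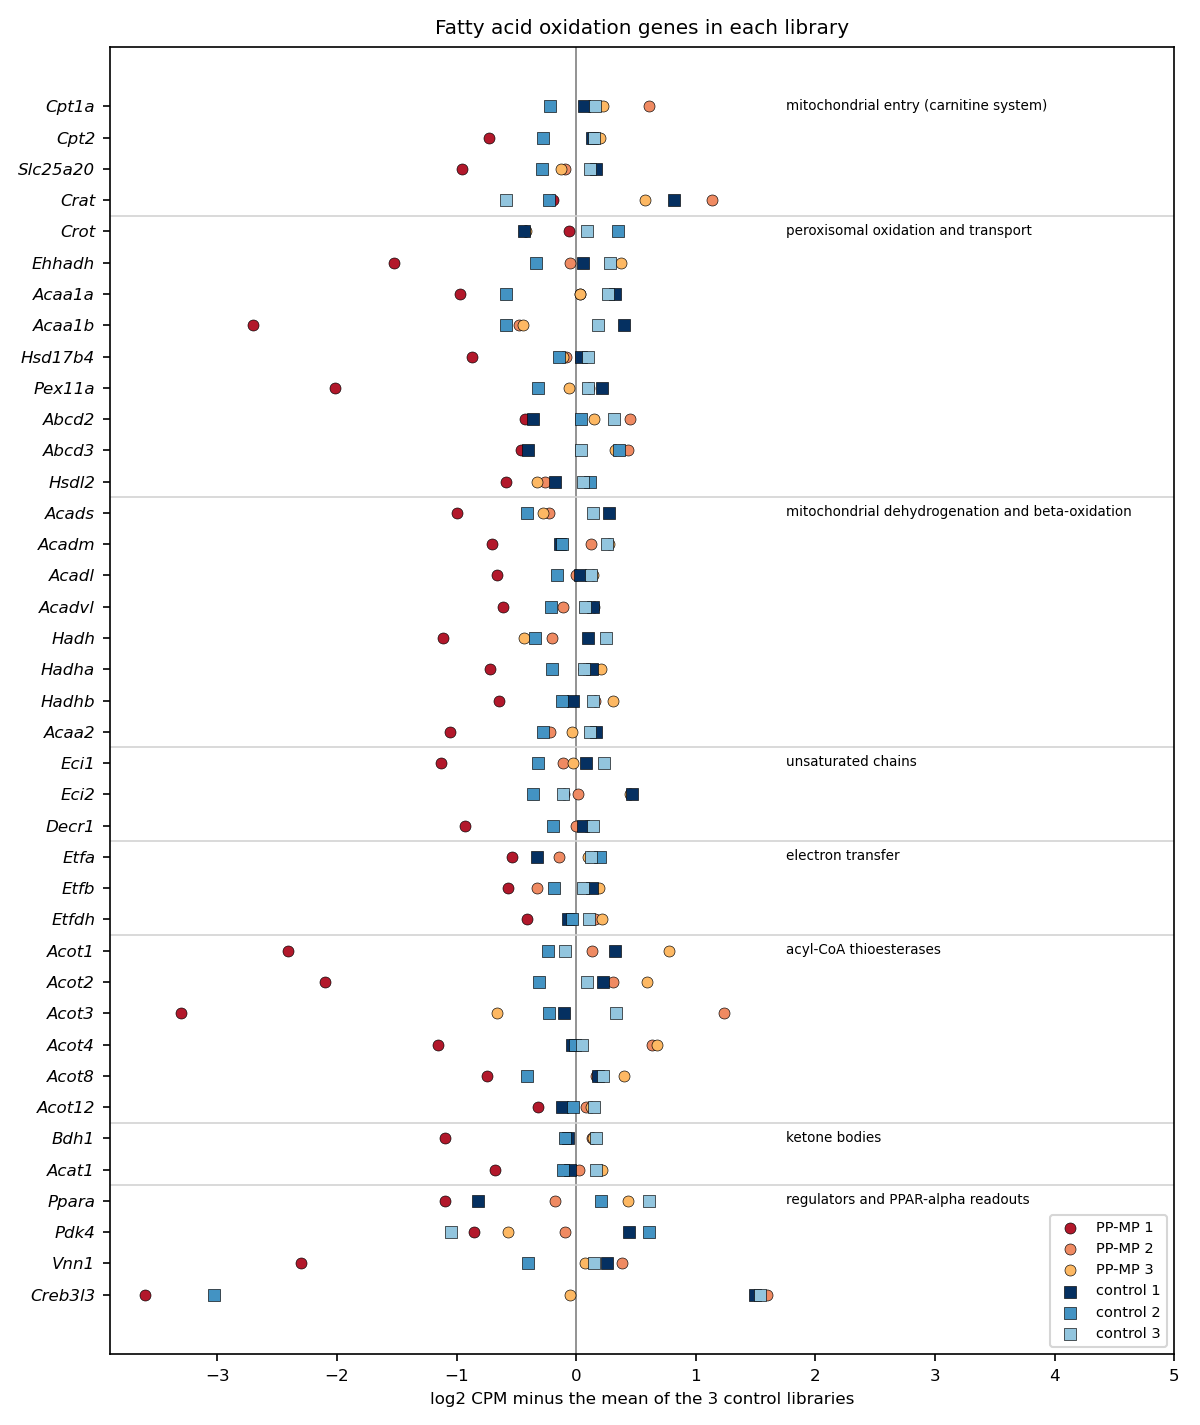
Log2 CPM of each of the 39 genes minus the mean of the 3 control libraries, horizontal axis, with 1 row per gene grouped by role. Circles are PP-MP libraries and squares control libraries. The dark red circles of PP-MP 1 lie left of all other points for 34 genes. They lie farthest from the control mean for Creb3l3, Acot3, Acaa1b and Acot1. For Creb3l3, control 2 (−3.03) lies next to PP-MP 1 (−3.61).

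The carnitine system moves fatty acids into mitochondria. Cpt1a, the outer-membrane carnitine palmitoyltransferase that controls the rate of entry, had 484, 685 and 525 CPM in PP-MP 1, 2 and 3, against 470, 386 and 501 CPM in control 1, 2 and 3. Only PP-MP 1 overlapped the control range, and it was not the lowest library. The log2 fold change was 0.32 (SE 0.20, adjusted p = 0.501 by edgeR). Crat, which moves acetyl groups between CoA and carnitine, had 50.2, 126 and 85.6 CPM in PP-MP 1, 2 and 3, against 101, 48.9 and 38.1 CPM in control 1, 2 and 3, with a log2 fold change of 0.48 (SE 0.46). The groups overlapped, and 8.72% of the exonic bases of Crat lie on the opposite strand to exons of other gene models. The other mitochondrial members, Cpt2 of the inner membrane (−0.08) and the carnitine-acylcarnitine carrier Slc25a20 (−0.35), were lowest in PP-MP 1.

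The promoter of Cpt1a is shown because Cpt1a and Acot4, whose promoter is given with the thioesterases, were above every control library in PP-MP 2 and PP-MP 3 and both hold the hexamer AGGTCA, the core of nuclear receptor sites. The other 3 genes above every control library in both, Hadhb, Etfdh and Acot2, hold no such hexamer in their windows. Both sequences are from RefSeq promoters of build GRCm38.p6, 250 bases before to 50 after the start, 5′ to 3′ on the gene's strand, with the hexamer or its reverse complement TGACCT in capitals. The Cpt1a window is chr19:3323051-3323350 on the plus strand.
Cpt1a: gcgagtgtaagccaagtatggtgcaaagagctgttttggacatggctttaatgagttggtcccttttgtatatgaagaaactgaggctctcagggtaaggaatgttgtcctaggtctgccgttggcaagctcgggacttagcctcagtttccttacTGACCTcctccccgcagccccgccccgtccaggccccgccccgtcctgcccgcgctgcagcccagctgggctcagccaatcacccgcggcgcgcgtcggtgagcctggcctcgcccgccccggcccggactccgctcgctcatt

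Hexamer matches to AGGTCA on either strand were in 8 promoters of 7 of these genes (Acadm, Acadvl, Acot3, Acot4, Acot12, Cpt1a and Creb3l3), out of 36 promoters found for 32 of the 39, and in 16.3% of all 32851 promoters (13.4% of the 15004 promoters of genes tested). The 2 Acot3 windows share 293 bases and the same match. The longer direct repeat AGGTCANAGGTCA, in which the hexamer occurs in tandem as in a PPAR-alpha site, was in 0 of the 36 and in 0.0396% of all promoters. Its looser form AGGNCANAGGNCA was in 0 of the 36 and in 0.381% of all promoters. These 2 repeats are therefore not in these windows. Forms with other letters were not searched for, so nothing follows about binding in these windows or elsewhere. Vnn1, Decr1, Acat1, Crat, Abcd2, Acaa2 and Hsd17b4 had no entry.

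The 8 genes of mitochondrial dehydrogenation and β-oxidation proper were all lowest in PP-MP 1, and all had a fitted log2 fold change below 0, between −0.56 for Hadh and −0.01 for Hadhb. Acadm, the medium-chain acyl-CoA dehydrogenase, had 303, 538 and 596 CPM in PP-MP 1, 2 and 3, against 450, 454 and 588 CPM in control 1, 2 and 3 (log2 fold change −0.05, SE 0.28, edgeR adjusted p = 0.948). PP-MP 1 lay below the control range, PP-MP 2 inside it and PP-MP 3 just above it. Over the 8 genes, the mean log2 level relative to the control mean was −0.81, −0.05 and 0.04 in PP-MP 1, 2 and 3. Without PP-MP 1 the sign was positive for 5 of the 8.

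The dehydrogenases for other chain lengths, Acads (short, −0.49), Acadl (long, −0.14) and Acadvl (very long, −0.17), were lowest in PP-MP 1 as well. For Acadvl, 42.9% of exonic bases overlap Dvl2 on the opposite strand. Hadh, the short-chain hydroxyacyl-CoA dehydrogenase, had 168, 317 and 269 CPM in PP-MP 1, 2 and 3, against 390, 287 and 433 CPM in control 1, 2 and 3 (log2 fold change −0.56, SE 0.28, edgeR adjusted p = 0.424). PP-MP 2 overlapped the control range and PP-MP 1 and 3 lay below it. Acaa2, the mitochondrial thiolase, had 460, 821 and 935 CPM in PP-MP 1, 2 and 3, against 1075, 788 and 1035 CPM in control 1, 2 and 3 (log2 fold change −0.39), and was second only to Acaa1b among the 39 per kilobase of exon. Its level per kilobase was 487 ± 164 CPM in PP-MP and 637 ± 103 CPM in control libraries (SD, n = 3 each), against 736 ± 455 and 1436 ± 465 CPM for Acaa1b, so the order of the pair is within the spread in PP-MP libraries.

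Hadha and Hadhb encode the alpha and beta subunits of the mitochondrial trifunctional protein, which carries out the later steps on long chains. Hadha had 264, 455 and 502 CPM in PP-MP 1, 2 and 3, against 477, 378 and 455 CPM in control 1, 2 and 3 (log2 fold change −0.10, SE 0.26, edgeR adjusted p = 0.885). Hadhb had 156, 272 and 303 CPM in PP-MP 1, 2 and 3, against 241, 225 and 270 CPM in control 1, 2 and 3 (log2 fold change −0.01, SE 0.26). The ratio of Hadha to Hadhb was 1.69, 1.67 and 1.66 in PP-MP 1, 2 and 3, against 1.98, 1.68 and 1.69 in control 1, 2 and 3, so the subunits kept nearly 1 ratio in 5 libraries and control 1 stood higher. Of the 100-base windows of the Hadhb coding sequence, 77.4% also occur in the gene model Gm13910, which had 0 counts in every library.

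The genes start in opposite directions from a shared stretch, shown because the subunits were low together in PP-MP 1. The RefSeq promoter of Hadhb is chr5:30155003-30155302 on the plus strand of GRCm38.p6, and its first 228 bases, in capitals, are also in the promoter window of Hadha on the minus strand. The annotated starts are 273 bases apart.
Hadhb: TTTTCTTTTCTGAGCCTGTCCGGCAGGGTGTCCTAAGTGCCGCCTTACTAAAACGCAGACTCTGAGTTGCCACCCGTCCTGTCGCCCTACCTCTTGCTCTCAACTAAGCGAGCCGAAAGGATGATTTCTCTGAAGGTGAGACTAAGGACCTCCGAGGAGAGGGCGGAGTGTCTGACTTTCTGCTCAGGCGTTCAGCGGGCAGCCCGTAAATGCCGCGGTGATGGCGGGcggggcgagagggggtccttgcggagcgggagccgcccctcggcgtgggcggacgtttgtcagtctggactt

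Unsaturated chains need isomerases and a reductase to enter the cycle. Eci1 (−0.36) and the dienoyl-CoA reductase Decr1 (−0.22) were lowest in PP-MP 1, while Eci2, an isomerase of peroxisomes and mitochondria, had 74.3, 80.7 and 109 CPM in PP-MP 1, 2 and 3, against 110, 62.3 and 74.1 CPM in control 1, 2 and 3 (log2 fold change 0.10, SE 0.26). The Eci2 groups overlapped.

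The electron-transfer flavoprotein (subunits Etfa and Etfb) and its dehydrogenase Etfdh carry electrons from the acyl-CoA dehydrogenases to the respiratory chain. Their fitted log2 fold changes were −0.19, −0.21 and 0.01. All 3 were lowest in PP-MP 1, at a mean of −0.50 log2 units relative to the control mean, a smaller distance than in the thioesterases. Of Etfb's exonic bases, 58.2% overlap other gene models on its own strand, of which Gm45233 had 0 counts in every library.

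Peroxisomal genes covered the widest span of fold changes. Ehhadh, the peroxisomal bifunctional enzyme and a classic PPAR-alpha target, had 205, 567 and 762 CPM in PP-MP 1, 2 and 3, against 613, 467 and 715 CPM in control 1, 2 and 3 (log2 fold change −0.23, SE 0.46, edgeR adjusted p = 0.844). PP-MP 1 was the lowest library and PP-MP 3 the highest. Of the 9 peroxisomal genes, 8 were lowest in PP-MP 1, and the mean log2 level of the 9 relative to the control mean was −1.07, −0.03 and −0.05 in PP-MP 1, 2 and 3.

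Acaa1b, a peroxisomal thiolase, had the lowest fold change of the 39. It had 415, 1937 and 1982 CPM in PP-MP 1, 2 and 3, against 3579, 1805 and 3066 CPM in control 1, 2 and 3 (log2 fold change −0.96, SE 0.59, edgeR adjusted p = 0.496). PP-MP 2 and 3 were close to control 2 and below control 1 and 3. Its near copy Acaa1a had 221, 444 and 443 CPM in PP-MP 1, 2 and 3, against 542, 289 and 522 CPM in control 1, 2 and 3 (log2 fold change −0.29, SE 0.36), and PP-MP 2 and 3 lay inside the control range.

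Acaa1a and Acaa1b are 96.5% identical over 1272 coding bases, differing at 44, and 24.1% of their 100-base windows are shared, so reads in those windows could not be told apart and both levels are uncertain. The stretch with the most differences, coding bases 433 to 552 on chromosome 9 (GENCODE M21 transcripts, GRCm38), shows where reads can tell them apart, with the 14 differing bases in capitals.
Acaa1b: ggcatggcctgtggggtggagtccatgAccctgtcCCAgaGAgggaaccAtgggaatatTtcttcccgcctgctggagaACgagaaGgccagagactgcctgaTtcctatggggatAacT
Acaa1a: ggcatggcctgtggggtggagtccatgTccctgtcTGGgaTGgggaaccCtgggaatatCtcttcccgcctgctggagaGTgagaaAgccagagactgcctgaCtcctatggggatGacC

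Summed, the pair had 636, 2381 and 2425 CPM in PP-MP 1, 2 and 3, against 4121, 2094 and 3589 CPM in control 1, 2 and 3, and the groups overlapped. The other peroxisomal genes were the D-bifunctional enzyme Hsd17b4 (−0.32), the division factor Pex11a (−0.41), the carnitine octanoyltransferase Crot (−0.33) and the acyl-CoA importers Abcd2 (0.08) and Abcd3 (0.11). Pex11a had 52.8, 230 and 205 CPM in PP-MP 1, 2 and 3, against 248, 172 and 230 CPM in control 1, 2 and 3, with only PP-MP 1 outside the control range. Crot was the exception in its group, with 621, 481 and 484 CPM in PP-MP 1, 2 and 3, against 477, 824 and 690 CPM in control 1, 2 and 3, so PP-MP 1 was its highest PP-MP library.

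Hsdl2, a peroxisomal protein related to short-chain dehydrogenases, was the 1 gene whose groups did not overlap. It had 66.7, 83.7 and 79.9 CPM in PP-MP 1, 2 and 3, against 88.8, 109 and 104 CPM in control 1, 2 and 3, and every PP-MP library was lower than every control library. The log2 fold change was −0.39 (SE 0.15, 95% interval −0.75 to −0.03), with an unadjusted edgeR p of 0.038 and an adjusted p of 0.343. It did not pass the test over all genes. It also had the narrowest spread of the 39 among the PP-MP libraries, 0.33 log2 units between the lowest and the highest. Without PP-MP 1 its log2 fold change was −0.30 with an unadjusted edgeR p of 0.0958.

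**Figure D4:**
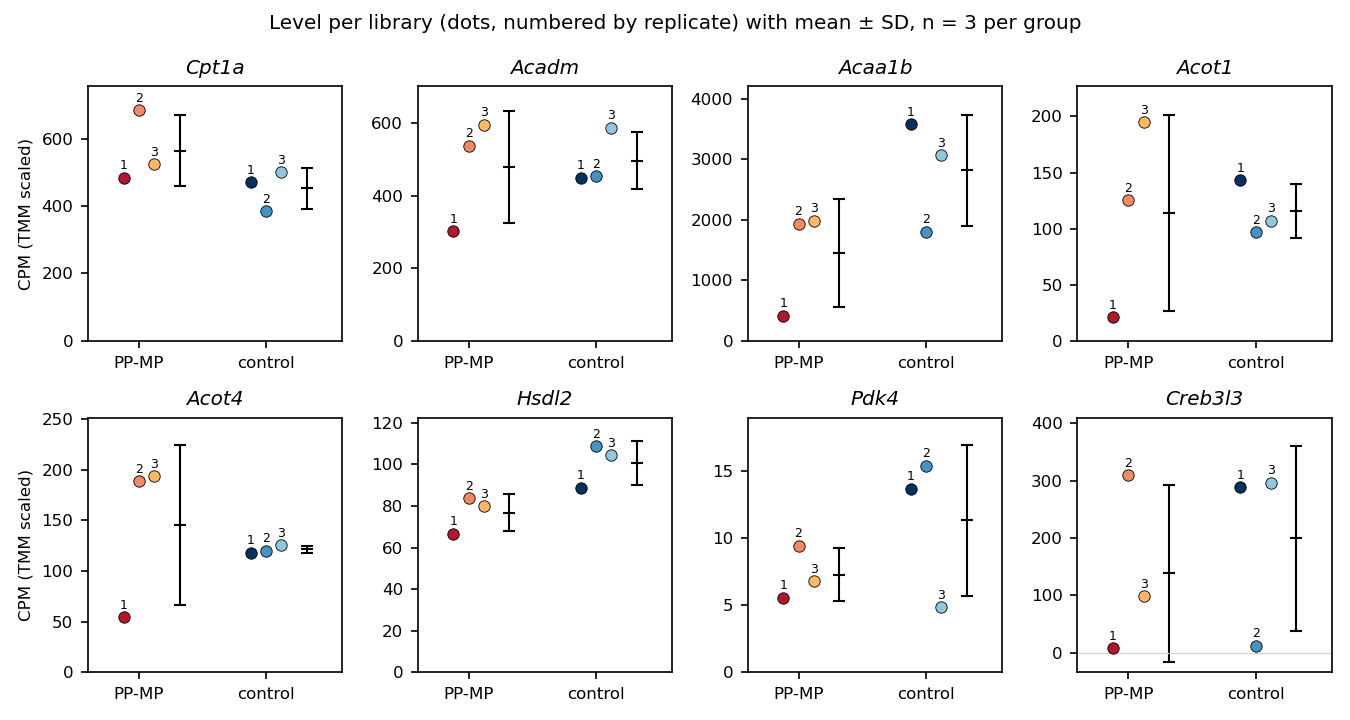
Level in CPM (vertical axis, scaled by TMM factors) of Cpt1a, Acadm, Acaa1b, Acot1, Acot4, Hsdl2, Pdk4 and Creb3l3 in each library, numbered by replicate, with the mean and SD of each group (n = 3). PP-MP 1 is the lowest point for Acadm, Acaa1b, Acot1, Acot4, Hsdl2 and Creb3l3 but not for Cpt1a or Pdk4.

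After the regulators, the 6 acyl-CoA thioesterases lay farthest below the controls in PP-MP 1. All 6 were lowest there, and their mean log2 level relative to the control mean was −1.67, 0.43 and 0.32 in PP-MP 1, 2 and 3. Acot1, the cytosolic thioesterase, had 21.5, 125 and 195 CPM in PP-MP 1, 2 and 3, against 143, 97.0 and 107 CPM in control 1, 2 and 3 (log2 fold change −0.02, SE 0.68, edgeR adjusted p = 0.993). Both the lowest and the highest of the 6 values were PP-MP libraries. Acot2, its mitochondrial relative, had 9.51, 50.7 and 61.6 CPM in PP-MP 1, 2 and 3, against 47.7, 32.9 and 43.7 CPM in control 1, 2 and 3 (−0.03, SE 0.60).

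Acot3 and Acot4 are peroxisomal. Acot3 had 6.04, 141 and 37.9 CPM in PP-MP 1, 2 and 3, against 55.7, 51.3 and 75.3 CPM in control 1, 2 and 3 (0.02, SE 0.92), and its PP-MP libraries spanned 4.54 log2 units. Acot4 had 54.2, 188 and 193 CPM in PP-MP 1, 2 and 3, against 118, 120 and 126 CPM in control 1, 2 and 3, the tightest control values of the 39. Its log2 fold change was 0.26 (SE 0.44, edgeR adjusted p = 0.812) with all libraries and 0.65 (SE 0.13, edgeR adjusted p = 0.375) without PP-MP 1. PP-MP 2 and 3 were above, and PP-MP 1 below, all control libraries. Acot8 of peroxisomes (−0.01) and the cytosolic acetyl-CoA hydrolase Acot12 (−0.03) differed least from the controls in PP-MP 1 among the 6. The promoter of Acot4 is chr12:84038129-84038428 on the plus strand of GRCm38.p6.
Acot4: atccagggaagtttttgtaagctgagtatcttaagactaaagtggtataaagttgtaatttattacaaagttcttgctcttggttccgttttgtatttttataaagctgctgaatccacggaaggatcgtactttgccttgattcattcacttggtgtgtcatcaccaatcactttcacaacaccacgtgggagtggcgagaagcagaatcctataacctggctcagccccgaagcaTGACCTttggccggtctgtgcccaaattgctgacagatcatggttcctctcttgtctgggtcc

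Acot1 to Acot4 are close copies on chromosome 12, and their levels could be split by the counting. Acot1 and Acot2 are 95.6% identical over aligned coding bases, and 41.1% of the 100-base windows of Acot1, 39.9% of Acot3, 28.5% of Acot2 and 1.9% of Acot4 occur in other genes. The summed level of the 4 had 91.2, 505 and 488 CPM in PP-MP 1, 2 and 3, against 364, 301 and 352 CPM in control 1, 2 and 3, so PP-MP 1 was below, and PP-MP 2 and 3 above, every control library. The most divergent stretch of Acot1 (coding bases 767 to 886) and its counterpart in Acot2 (890 to 1009) is given with its 14 differing bases in capitals (GENCODE M21 transcripts, GRCm38).
Acot1: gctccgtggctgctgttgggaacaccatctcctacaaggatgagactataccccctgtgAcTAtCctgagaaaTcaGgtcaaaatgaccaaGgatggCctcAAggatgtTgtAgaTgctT
Acot2: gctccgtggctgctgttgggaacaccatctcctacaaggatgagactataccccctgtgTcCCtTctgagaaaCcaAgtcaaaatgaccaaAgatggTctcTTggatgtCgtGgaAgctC

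Of the ketone body enzymes, Bdh1, which interconverts acetoacetate and hydroxybutyrate, had 128, 299 and 302 CPM in PP-MP 1, 2 and 3, against 261, 256 and 307 CPM in control 1, 2 and 3 (log2 fold change −0.18, SE 0.33, edgeR adjusted p = 0.83). Acat1, the mitochondrial acetoacetyl-CoA thiolase, had 296, 483 and 551 CPM in PP-MP 1, 2 and 3, against 458, 441 and 532 CPM in control 1, 2 and 3 (−0.11, SE 0.25). In both, PP-MP 1 alone lay below the control range. Of Bdh1's exonic bases, 13.7% overlap Gm15743 on the opposite strand.

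The 4 regulators and PPAR-alpha readouts include the widest spread of either group. Ppara itself had 60.9, 115 and 176 CPM in PP-MP 1, 2 and 3, against 73.9, 150 and 199 CPM in control 1, 2 and 3 (log2 fold change −0.26, SE 0.48, edgeR adjusted p = 0.823). The groups overlapped, with 1 low library in each. Pdk4, the kinase that shuts off pyruvate dehydrogenase when fat is burned, had 5.56, 9.44 and 6.79 CPM in PP-MP 1, 2 and 3, against 13.7, 15.4 and 4.86 CPM in control 1, 2 and 3 (−0.64, SE 0.44, edgeR adjusted p = 0.545). Control 3 was its lowest library.

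Vnn1, a pantetheinase and PPAR-alpha target, had 11.6, 74.8 and 60.4 CPM in PP-MP 1, 2 and 3, against 68.5, 43.3 and 63.7 CPM in control 1, 2 and 3 (−0.26, SE 0.61, edgeR adjusted p = 0.87). PP-MP 1 was below the control range, PP-MP 2 above it and PP-MP 3 inside it. Creb3l3 (CREBH), a liver transcription factor held in the endoplasmic reticulum membrane that acts in fasting and in the acute phase response, had 8.38, 309 and 98.7 CPM in PP-MP 1, 2 and 3, against 289, 12.5 and 296 CPM in control 1, 2 and 3 (−0.52, SE 1.35, edgeR adjusted p = 0.885). It was near 10 CPM in PP-MP 1 and control 2 and at least 98.7 CPM in the other 4, the widest spread among PP-MP libraries (5.20 log2 units) of the 39, and it was also the widest among control libraries (4.56).

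Creb3l3 was the sharpest case of a wider order. PP-MP 1 was lowest and control 2 second lowest for 22 of the 39 genes. The share of all genes tested in this order was not counted, so it cannot be called particular to the 39. The mean log2 level of the 39 relative to the control mean was −1.06, 0.13 and 0.10 in PP-MP 1, 2 and 3, against 0.09, −0.23 and 0.14 in control 1, 2 and 3. Over all genes tested that mean was 0.18, 0.14 and 0.11 in PP-MP 1, 2 and 3, against −0.05, 0.11 and −0.06 in control 1, 2 and 3. In PP-MP 1, 14 of the 39 genes lay more than 1 log2 unit below the control mean, and 7 more than 2 units: Creb3l3 (−3.61), Acot3 (−3.30), Acaa1b (−2.71), Acot1 (−2.41), Vnn1 (−2.30), Acot2 (−2.10) and Pex11a (−2.02). The share of all genes tested past these limits was not counted, so the 2 counts have no background beside them.

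Most of the 39 genes varied together across the libraries. Pearson's r of a gene with the mean of the other 38 was taken over 6 libraries. All genes of a library share its depth and scaling factor, so their values are not independent. This r had a median of 0.92, was above 0.9 for 22 genes and was below 0 for 1, Crot (−0.36). Without PP-MP 1, over 5 libraries, the median was 0.59, with 5 genes above 0.9 and 6 below 0. Among 6638 other genes of at least 10 CPM, those most like the mean profile of the 39 were Vdac2 (r = 0.994), Maip1 (0.994), Hdhd5 (0.993), Dolpp1 (0.990), Hars2 (0.989) and Clcn4 (0.988). Over the 5 libraries without PP-MP 1 these values ran between 0.871 and 0.991. Dolpp1 shares exonic bases with Crat on the opposite strand.

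Other genes of the pathway, in lists that do not overlap the 39, numbered 95, of which edgeR called 1 and DESeq2 called 4. Over all genes tested edgeR called 0.0109% and DESeq2 4.26%, so the DESeq2 count was near the share of all genes. Of all genes tested, 13.9% had an unadjusted edgeR p under 0.05 and 22.9% were lowest in PP-MP 1. The groups did not overlap for 22%. Of 21 other genes of mitochondrial oxidation, activation and carnitine, edgeR called none, 1 had an unadjusted p under 0.05, and 12 were lowest in PP-MP 1. That gene, Acad9, an acyl-CoA dehydrogenase relative needed for complex I assembly, had a log2 fold change of −0.53 (edgeR adjusted p = 0.311). Of 32 other peroxisomal genes none was called, 22 were lowest in PP-MP 1, and Acox3, an acyl-CoA oxidase for branched chains, had the smallest p (log2 fold change 0.79, edgeR adjusted p = 0.246).

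Of 7 other ketone body genes edgeR called none, and 4 were lowest in PP-MP 1. Bdh2, a cytosolic relative of Bdh1, had 5.70, 5.71 and 6.42 CPM in PP-MP 1, 2 and 3, against 10.4, 10.2 and 11.3 CPM in control 1, 2 and 3. Its groups did not overlap, and its log2 fold change of −0.84 (SE 0.15) had an unadjusted edgeR p of 0.000825 and an adjusted p of 0.183. DESeq2 called it, with an adjusted p of 4.16e-05.

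Of 16 other regulators edgeR called none and DESeq2 called 1. In edgeR 1 was higher and 3 were lower at an unadjusted p under 0.05, and only 4 were lowest in PP-MP 1. Sirt3, the mitochondrial deacetylase, had 21, 24.2 and 37.3 CPM in PP-MP 1, 2 and 3, against 48.3, 58.9 and 57.3 CPM in control 1, 2 and 3, with no overlap (log2 fold change −0.996, SE 0.24, edgeR adjusted p = 0.215, DESeq2 adjusted p = 0.0105), and was the 1 regulator that DESeq2 called. The fasting hormone Fgf21 had a log2 fold change of 1.55 (edgeR adjusted p = 0.356), and the adipogenic receptor Pparg had −0.67 (edgeR adjusted p = 0.333). Of 19 genes listed as other PPAR-alpha targets 11 were lowest in PP-MP 1. Over the 19, 5 were fitted higher and 14 lower, with a median log2 fold change of −0.23. Cyp4a10 and Cyp4a14 had −0.01 (edgeR adjusted p = 0.995) and 0.13 (edgeR adjusted p = 0.927). In this list edgeR called 1 and DESeq2 called 2, Cyp4a12b and Cyp4a12a. Only these 2 of the 19 had an unadjusted edgeR p under 0.05. Cyp4a12b, a fatty acid hydroxylase, had 38.4, 41.0 and 32.1 CPM in PP-MP 1, 2 and 3, against 183, 151 and 179 CPM in control 1, 2 and 3 (log2 fold change −2.20, edgeR adjusted p = 0.0322). The groups did not overlap, and PP-MP 1 was not its lowest library. Its near copy Cyp4a12a had a log2 fold change of −2.14 (edgeR adjusted p = 0.13, DESeq2 adjusted p = 1.49e-13), and both levels are uncertain since counting can split reads between such copies. The edgeR call of Cyp4a12b was lost with the replicate block, with scaling by library totals, and without PP-MP 1, PP-MP 2, PP-MP 3, control 1 or control 3, since edgeR then called 0 genes lower.

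**Figure D5:**
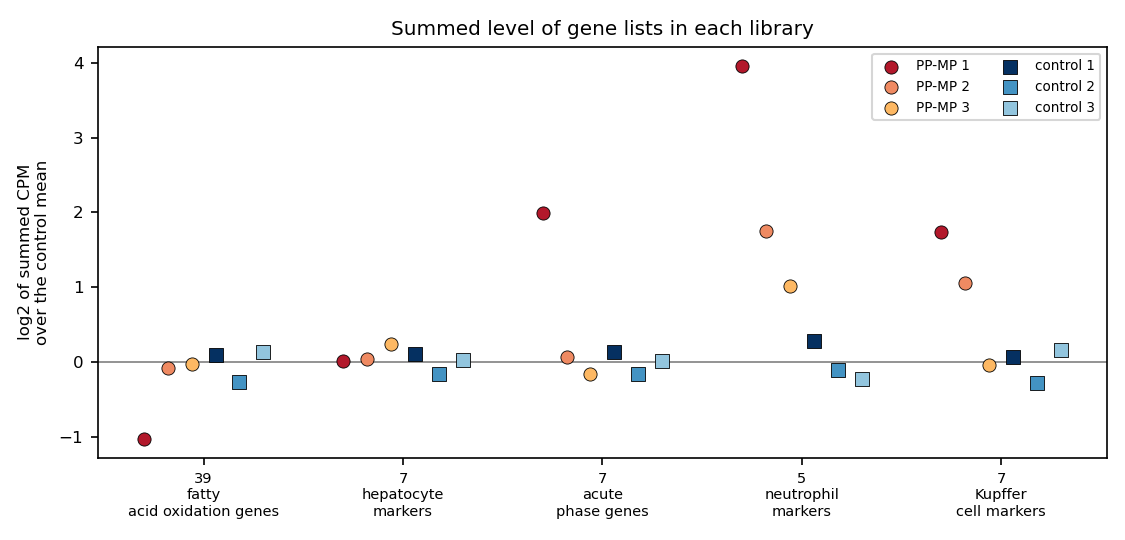
Log2 of the summed CPM over the mean of the 3 control libraries (vertical axis) in each library, for the 39 genes, 7 hepatocyte markers, 7 acute phase genes, 5 neutrophil markers and 7 Kupffer cell markers. PP-MP 1 is the lowest point for the 39 genes and the highest for the acute phase, neutrophil and Kupffer cell genes.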

How the data were processed

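Poly(A) RNA of liver was sequenced from directional libraries, per the labels' protocols. The authors deposited raw read counts per gene, per the file headers and values, and the 6 per-sample files equal the columns of the table. The submitters' processing notes name bcl2fastq and the build GRCm39, without versions. Aligner, counter and strand setting were not given in the sources used here. Low counts were removed by group with filterByExpr, and TMM factors scaled the libraries. The test was edgeR's quasi-likelihood F test (version 4.0.16, robust option, R 4.3.3), two-sided, at a Benjamini-Hochberg adjusted p of 0.05 taken over 18284 genes. The SE and 95% interval come from the same fit, and log2 CPM used a prior count of 2. The design was unpaired. DESeq2 1.42.0 and limma-voom (limma 3.58.1) were alternatives. No 2 libraries of a group were duplicates (chi-square per degree of freedom 154 to 928). The fit was checked on simulated data in which some genes were given a known change. Its recovery rate was 0% for a 1.5-fold change, 2.99% for a doubling (2-fold) and 59.1% at 4-fold. It made 41 calls there, with 0 false. The absence of calls among the 39 genes therefore says little about changes up to 2-fold. Lengths, overlaps and coding sequences are from GENCODE M21 (GRCm38), and promoters from RefSeq (GRCm38.p6), matched by symbol; no deposited value carries coordinates. Tables and figures used Python 3.11.15 with pandas 2.3.3, NumPy 2.4.6 and matplotlib 3.10.9.

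The members and the lists were chosen with earlier results of these data known. Genes described in full are those with an unadjusted p under 0.05, no overlap or a DESeq2 call, and Cpt1a, Ppara, Pdk4, Creb3l3, Vnn1, Bdh1, Hadha, Ehhadh, Acot1 and Acadm; the other pathway genes named are at most the 4 of smallest p in each list, and some genes of these lists are not reported here. The values of Crat, Hadh, Acaa2, Hadhb, Eci2, Acaa1a, Acaa1b, Pex11a, Crot, Acot2, Acot3, Acot4 and Acat1 in each library were added after they were seen. The fold changes of Cyp4a10 and Cyp4a14 were also added then, outside the rule of smallest p. Gene lists for sinusoidal endothelium, stellate cells, cholangiocytes, lymphocytes and adipocytes were also measured. The endothelial sum was 66.4 to 116 CPM in PP-MP and 77.7 to 94.2 CPM in control libraries. The stellate sum was 309 to 505 CPM in PP-MP and 329 to 364 CPM in control libraries, and the cholangiocyte sum 12.4 to 22.9 CPM in PP-MP and 12.0 to 26.8 CPM in control libraries. The lymphocyte sum was 5.63 to 7.91 CPM in PP-MP and 7.06 to 15.8 CPM in control libraries. The sum of the 2 tested adipocyte markers of 5 was 0.139 to 5.96 CPM in PP-MP and 2.39 to 12.4 CPM in control libraries; Adipoq and Plin1 were too low to test and Lep had 0 counts.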

Additional observations from a re-analysis of the deposited data

How the results depend on the processing

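None of the 39 genes was called under any alternative run: scaling by DESeq2 size factors or by library totals, the low-count filter dropped or set at a mean CPM of 1, the DESeq2 and limma-voom tests, the replicate block, an adjusted p of 0.1, mitochondrial and haemoglobin genes removed, or any library left out. Over all genes, 2 were called, against 777 with DESeq2, 1 with library totals, 1 with limma-voom and 0 to 92 with a library left out (92 without control 2). Each library's log2 CPM was also taken gene by gene as its deviation from its group mean. These deviations correlated at −0.0662, −0.0872 and 0.0470 between same-numbered PP-MP and control libraries and at −0.0723 to 0.123 between differently numbered ones. With 3 libraries a group this cannot show whether the numbers pair samples, and the labels do not say that they do. With the replicate block 0 genes were called, 0 of the 39. There 1 of the 39 had an unadjusted edgeR p under 0.05, and the 39 had a median log2 fold change of −0.28. The 39 had 1 gene at an unadjusted edgeR p under 0.05, Hsdl2. With library totals it was Cpt1a in its place, without PP-MP 1 Acot4 and without control 3 Pdk4. The 39 had 0 with no filter (10.2% of all genes tested) and 0 to 2 with a library left out (8.88% to 20.8%). Their median log2 fold change of −0.18 ran between −0.35 and 0.10 with a library left out (0.10 without PP-MP 1, −0.07 without control 3), and 18 genes changed sign without PP-MP 1 and 15 with library totals. Chosen after seeing the data, leaving out PP-MP 1 and control 2 together gave a median of 0.03 over the 39 and 0.03 over all genes tested. In that run 5 of the 39 had an unadjusted edgeR p under 0.05, against 17.6% of all genes tested. Of the 5, Acot4 and Abcd3 were higher and Acads, Hadh and Acaa1b lower. Leaving out Rn18s-rs5, also chosen then, gave a median of −0.18 over the 39. With 3 libraries a group, the intervals of 17 genes reach past 2-fold, so these data do not hold their change to less than 2-fold.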

Other observations

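The ratio of Acaa1b to Acaa1a counts, the peroxisomal thiolases that are near copies, was 1.88, 4.36 and 4.48 in PP-MP 1, 2 and 3, against 6.60, 6.25 and 5.87 in control 1, 2 and 3. The groups did not overlap, and the mean was 3.57 ± 1.47 in PP-MP and 6.24 ± 0.363 in control libraries (SD, n = 3 each). The difference of the mean log2 ratio was −0.91, with an exact two-sided permutation p of 0.1, the smallest that 3 against 3 can give. The ratio was chosen after its values were seen, and 24.1% of the 100-base coding windows are shared by the 2 genes. The ratio of Acot1 to Acot2 counts, by contrast, overlapped between the groups, at 2.26, 2.47 and 3.17 in PP-MP 1, 2 and 3, against 2.999, 2.94 and 2.46 in control 1, 2 and 3.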
